A study of Mus musculus with 8 samples.

Results

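The genes described here are the proteasome genes, taken as every gene symbol that begins with *Psm*, a letter from a to g and a digit. The rule found 50 of the 18957 genes listed in each library, and it uses names only, no expression value. They encode the subunits of the proteasome, its activators, its inhibitor and its assembly chaperones. One match, *Psmc3ip*, shares only the name: it encodes a cofactor of meiotic recombination and not a subunit. It is described apart, and counts over all proteasome genes include it. The immunoproteasome subunits *Psmb8*, *Psmb9* and *Psmb10* are also described apart.

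The cells were cardiac fibroblasts sorted by FACS from ventricles of mice of strain C57BL/6 (mixed), aged 3 to 4 weeks, after collagenase perfusion. Live (DAPI-negative) cells without blood lineage markers and with PDGFRA, a receptor on the surface of most cardiac fibroblasts, were kept. WT libraries (n = 4) came from littermates with neither the transgene nor a floxed *Lmna* allele. The *Pdgfra-Cre:LmnaF/F* group (n = 4 libraries) carried a *Pdgfra-Cre* BAC transgene and floxed exon 2 of both copies of *Lmna*, the gene of the nuclear envelope proteins lamin A and lamin C. Cre under the *Pdgfra* promoter is active in fibroblasts and, in the embryo, in some cardiac myocytes. No library with Cre alone was analysed here, so presence of Cre and loss of *Lmna* cannot be told apart. RNA was taken from sorted populations, so fewer cells of a type and less RNA per cell cannot be told apart either.

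The proteasome is the protease that degrades proteins tagged with ubiquitin in the cytosol and the nucleus. Its barrel, the 20S core particle, has outer rings of alpha subunits, which gate the entrance, and inner rings of beta subunits, which hold the proteolytic sites. The 19S regulatory particle caps the barrel: its base unfolds the substrate with ATPases and its lid removes the ubiquitin chain. In cells exposed to interferon-gamma, and in leukocytes at rest, *Psmb8*, *Psmb9* and *Psmb10* replace the catalytic subunits *Psmb5*, *Psmb6* and *Psmb7*, and the resulting immunoproteasome favours peptides that fit MHC class I molecules. When proteasome activity falls, the transcription factor NRF1 (gene *Nfe2l1*) raises transcription of most subunit genes together through antioxidant response elements.

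Total counts lay between 2080555 (WT replicate 2) and 12502949 per library. *Lmna* was at 274 to 483 CPM in WT and at 90.4 to 130 in *Pdgfra-Cre:LmnaF/F* libraries, a log2 fold change of -1.72 (SE 0.22, adjusted p = 0.00492, edgeR) with no overlap between the groups. CPM here are counts scaled by library size and TMM factors. The 8 fibroblast markers summed to 48869 to 56433 CPM in WT and to 42217 to 58684 in *Pdgfra-Cre:LmnaF/F* libraries. *Pdgfra-Cre:LmnaF/F* replicate 4 stood apart in the summed markers of leukocytes (418 CPM, the other 7 libraries 39.9 to 170) and of cardiac myocytes (3005 CPM, the other 7 libraries 188 to 659). Summed markers of red blood cells were uneven in both groups. They were at 213, 356, 31.6 and 365 CPM in WT and at 666, 16.8, 45.0 and 29.6 in *Pdgfra-Cre:LmnaF/F* replicates 1 to 4. None of the markers in these lists was at 0 in all libraries. Over all 13036 genes that passed the filter on low counts, edgeR called 53 at an adjusted p under 0.05 (0.407%).

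Of the 50 proteasome genes, 47 passed the filter and 3 did not. *Psmb11*, the catalytic subunit of thymus epithelium, had 5, 0, 0 and 0 counts in the WT and 19, 0, 2 and 2 counts in the *Pdgfra-Cre:LmnaF/F* libraries. *Psma8*, the alpha subunit of the testis, had 0, 0, 17 and 0 counts in WT and 13, 0, 0 and 9 in *Pdgfra-Cre:LmnaF/F* libraries. *Psme2b*, a single-exon near-copy of *Psme2*, had at most 1 count in every library except *Pdgfra-Cre:LmnaF/F* replicate 2, which had 57. The subunits of tissue-specific proteasomes thus had few counts in these cells, and every proteasome gene other than these 3 passed the filter. Together the 50 genes took 0.263% to 0.316% of all counts in WT and 0.316% to 0.373% in *Pdgfra-Cre:LmnaF/F* libraries. The lowest share was in WT replicate 2 and the highest in *Pdgfra-Cre:LmnaF/F* replicate 2. The groups met at 0.316%, in WT replicates 1 and 3 and *Pdgfra-Cre:LmnaF/F* replicate 4.

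Levels of different genes were compared in WT as CPM per kilobase of exon, with each gene's exons joined over its transcripts. Among the 14 constitutive 20S subunits the median level was 30.8 CPM per kb. *Psmb4* was highest, at 90.5 ± 19.1 CPM per kb (SD, n = 4), and *Psma3* lowest, at 12.8 ± 1.44, a ratio of 7.07. *Psmb6*, the second in order, was at 83.2 ± 22.5 CPM per kb, which does not differ from *Psmb4* beyond the spread. The 17 subunits of the 19S particle had a median of 18.1 CPM per kb and ran from *Psmd8* (57.4 ± 9.39) to *Psmd11* (7.82 ± 1.53). The subunits of each particle occur in equal numbers within it, and their transcripts spanned about the same range in both particles, 7.07 and 7.34 times. *Psmb10* (24.2 ± 6.61 CPM per kb) lay among the 19S subunits, while *Psmb8* (5.40 ± 3.33) and *Psmb9* (3.23 ± 2.08) were below every constitutive subunit. The assembly chaperones ran from *Psmg4* (21.4 ± 3.84 CPM per kb) down to *Psmg3* (1.6 ± 0.567), the lowest of the 47 genes. *Psmc3ip*, at 1.71 ± 0.804, does not differ from *Psmg3* beyond the spread. Exon length joined over all transcripts overstates the length of genes with long minor transcripts and so lowers their level on this scale.

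**Figure D1:**
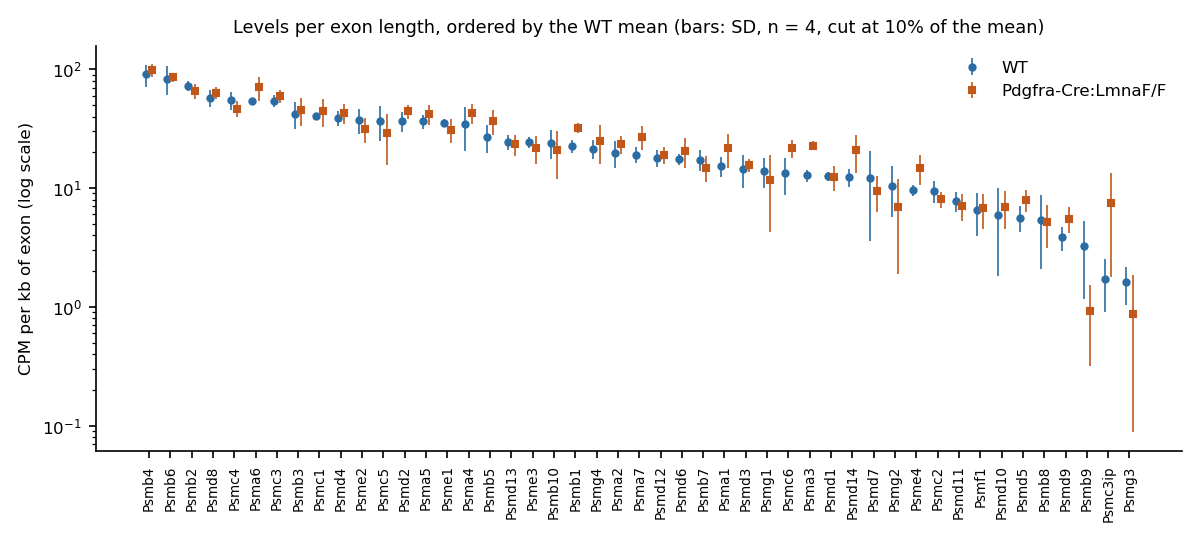
Level of each of the 47 tested genes as CPM per kb of exon (log axis), ordered by the WT mean, with circles for WT, squares for *Pdgfra-Cre:LmnaF/F* and bars of 1 SD (n = 4 each). *Psmb4* stands at the upper end at 90.5 and *Psmg3* at the lower end at 1.6 in WT, and the SD bars of both genotypes overlap for most genes.

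The comparison of the genotypes asks whether proteasome genes differ in fibroblasts with *Lmna* deleted. No proteasome gene passed an adjusted p of 0.05 in edgeR, where 0.407% of all genes did. DESeq2 called *Psma3* and *Psmc3ip* (2 of 47, against 2.32% of all genes), DESeq2 with 1 RUVr factor called the same 2 (3.49% of all genes), and limma-voom called *Psma3* alone (0.967% of all genes). At an unadjusted p under 0.05 there were 8 of 47 genes (17%) in edgeR, where all genes gave 11.9%. Of these, 7 were higher in *Pdgfra-Cre:LmnaF/F* (6.24% of all genes) and *Psmb9* was lower (5.65% of all genes). For 5 genes there was no overlap between the groups (8.03% of all genes), each higher in *Pdgfra-Cre:LmnaF/F* (4.06% of all genes), and for none in the lower direction (3.97% of all genes). These 5 were *Psma3*, *Psmb1*, *Psmc6*, *Psmd14* and *Psmc3ip*. The log2 fold change was positive for 29 of 47 genes (61.7%, against 51.8% of all genes), with a median of 0.12 beside 0.02 over all genes. Without *Pdgfra-Cre:LmnaF/F* replicate 2 the number at an unadjusted p under 0.05 was 4 of 47, where all genes in that fit gave 11.1%, and the median was 0.04. Without WT replicate 2 they were 5 of 47 (8.97% of all genes) and 0.05. Without *Pdgfra-Cre:LmnaF/F* replicate 4, the library with high myocyte and leukocyte markers, they were 8 of 47 (11.1% of all genes) and 0.08.

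The 31 subunits of the 26S core, that is the constitutive 20S barrel and the 19S cap, had a narrower range. Of these, 22 had a positive log2 fold change (71%) and the median was 0.14, with a range from -0.35 to 0.83. The 95% interval lay inside a 2-fold change in either direction for 24 of 31 (77.4%), where the share over all tested genes was 41.6%. Over the 79 tested subunits of oxidative phosphorylation that share was 72.2%. The spread between replicates was also smaller than over all genes. The median SD of log2 CPM within groups was 0.271 over the core subunits, 0.346 over the oxidative phosphorylation subunits and 0.494 over all genes. For the other 7 core subunits the interval reached beyond a 2-fold change on one side.

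**Figure D2:**
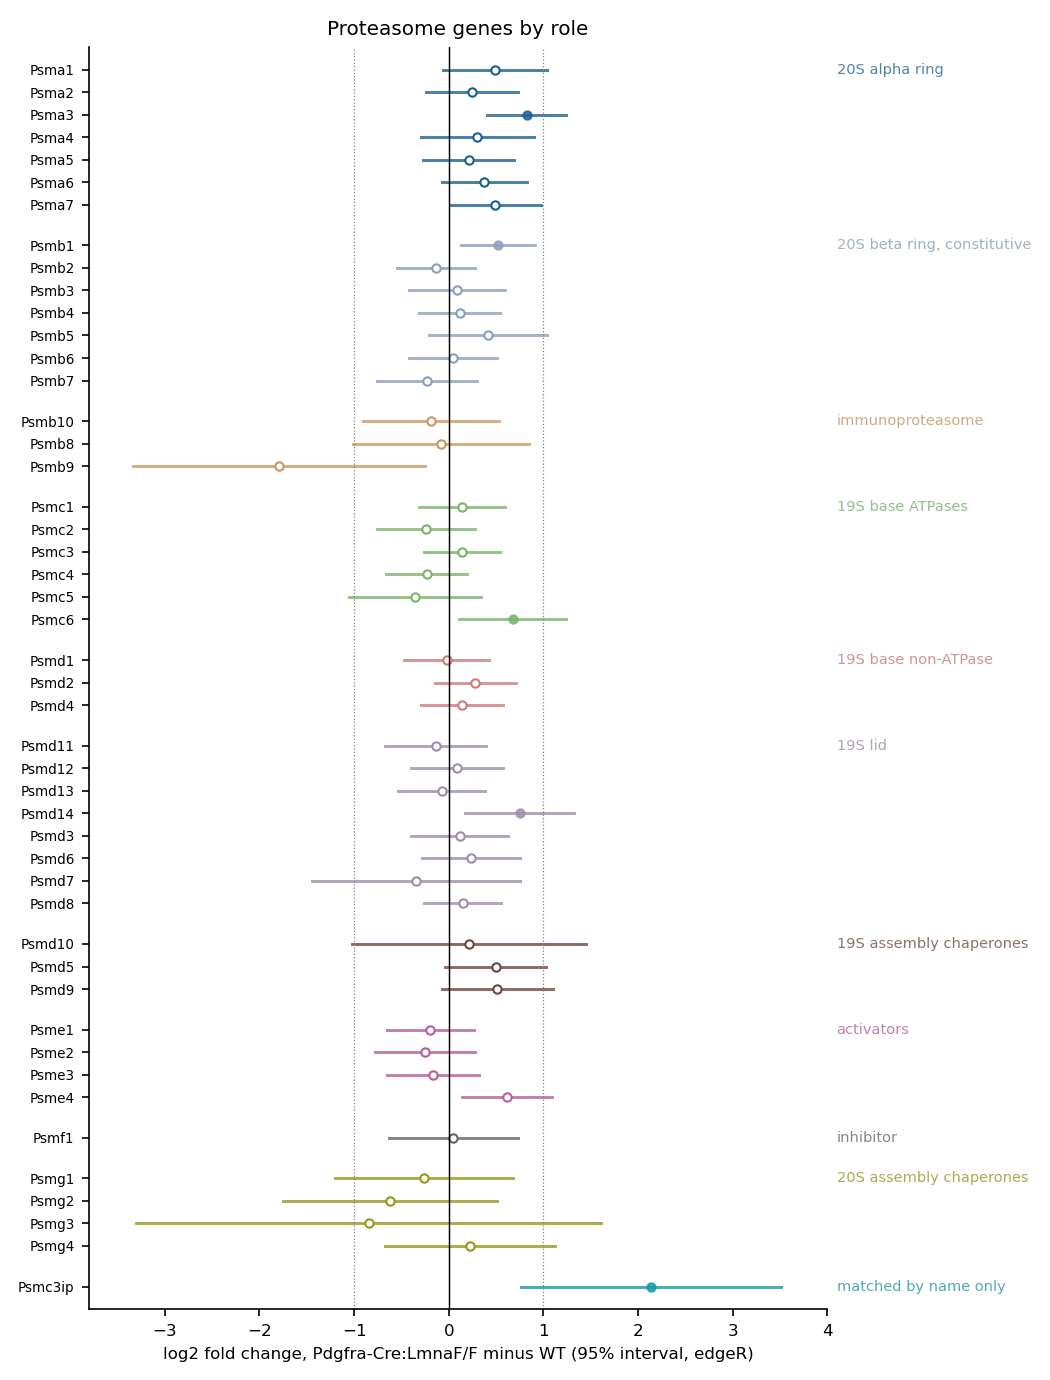
Log2 fold change of each tested proteasome gene (*Pdgfra-Cre:LmnaF/F* minus WT, edgeR), grouped by role, with its 95% interval. Filled points mark the 5 genes whose groups do not overlap, dotted lines mark a 2-fold change in either direction, and the points of all 7 alpha-ring genes lie to the right of 0.

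The promoters of the genes at an unadjusted p under 0.05 are shown so that the sequence near the start can be read beside the levels. RefSeq promoters of GRCm38.p6, from 250 bases before to 50 bases after the gene start, were used for 42 of the 50 genes. *Psmb1* is not among the 42, so 7 of the 8 genes are printed. Capitals mark matches on either strand to the antioxidant response element core TGACNNNGC, the interferon-stimulated response element (TTTC, any 2 bases, TTTC), the gamma-activated site TTCNNNGAA or the CCAAT box. The last sequence belongs to *Psmb9*, the one gene that was lower in *Pdgfra-Cre:LmnaF/F*, and the others to genes that were higher. *Psma3* is at chr12:70974373-70974672 on the plus strand, *Psmd14* at chr2:61711444-61711743 on the plus strand, *Psmc6* at chr14:45329574-45329873 on the plus strand, *Psme4* at chr11:30771525-30771824 on the plus strand, *Psma7* at chr2:180042415-180042714 on the minus strand, *Psmc3ip* at chr11:101095386-101095685 on the minus strand and *Psmb9* at chr17:34187281-34187580 on the minus strand.
Psma3: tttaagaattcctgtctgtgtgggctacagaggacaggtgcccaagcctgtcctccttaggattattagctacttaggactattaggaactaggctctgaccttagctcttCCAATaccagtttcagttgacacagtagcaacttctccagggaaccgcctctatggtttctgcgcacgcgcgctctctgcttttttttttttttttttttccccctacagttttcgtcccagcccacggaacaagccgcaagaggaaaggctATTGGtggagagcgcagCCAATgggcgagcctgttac
Psmd14: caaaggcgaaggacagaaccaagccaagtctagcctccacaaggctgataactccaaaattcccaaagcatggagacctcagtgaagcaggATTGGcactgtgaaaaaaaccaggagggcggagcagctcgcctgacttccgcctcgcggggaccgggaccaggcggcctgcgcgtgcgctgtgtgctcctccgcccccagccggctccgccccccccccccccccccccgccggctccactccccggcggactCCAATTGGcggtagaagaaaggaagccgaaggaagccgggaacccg
Psmc6: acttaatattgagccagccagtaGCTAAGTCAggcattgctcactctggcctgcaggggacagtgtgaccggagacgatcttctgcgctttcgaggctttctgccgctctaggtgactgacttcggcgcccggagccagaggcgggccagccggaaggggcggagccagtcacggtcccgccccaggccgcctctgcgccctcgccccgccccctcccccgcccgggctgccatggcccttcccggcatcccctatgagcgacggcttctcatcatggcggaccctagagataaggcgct
Psme4: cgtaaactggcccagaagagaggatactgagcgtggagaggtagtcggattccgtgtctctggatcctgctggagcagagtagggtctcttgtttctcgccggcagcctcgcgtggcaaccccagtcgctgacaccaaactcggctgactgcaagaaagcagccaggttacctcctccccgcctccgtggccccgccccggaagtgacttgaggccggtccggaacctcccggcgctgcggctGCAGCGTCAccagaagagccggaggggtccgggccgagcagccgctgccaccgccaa
Psma7: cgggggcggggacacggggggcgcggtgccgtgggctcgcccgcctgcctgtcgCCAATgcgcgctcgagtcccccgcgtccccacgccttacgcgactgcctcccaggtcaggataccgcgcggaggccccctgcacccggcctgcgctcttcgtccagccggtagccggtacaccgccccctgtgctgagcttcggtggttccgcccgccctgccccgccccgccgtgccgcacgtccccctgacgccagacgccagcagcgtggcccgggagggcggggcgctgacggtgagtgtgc
Psmc3ip: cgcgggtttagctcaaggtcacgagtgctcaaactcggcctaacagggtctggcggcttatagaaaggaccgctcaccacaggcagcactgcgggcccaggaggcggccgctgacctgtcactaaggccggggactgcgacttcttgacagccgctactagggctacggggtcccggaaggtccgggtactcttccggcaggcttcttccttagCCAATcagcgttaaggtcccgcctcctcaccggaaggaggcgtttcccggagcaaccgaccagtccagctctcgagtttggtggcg
Psmb9: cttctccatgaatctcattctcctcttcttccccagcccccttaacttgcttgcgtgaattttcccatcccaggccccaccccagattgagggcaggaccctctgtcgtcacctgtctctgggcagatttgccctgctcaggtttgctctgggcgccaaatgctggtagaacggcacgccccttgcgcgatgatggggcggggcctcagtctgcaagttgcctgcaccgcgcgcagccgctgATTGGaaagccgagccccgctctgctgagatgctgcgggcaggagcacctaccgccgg

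In *Psma3* and *Psmd14* the capitals are CCAAT boxes only, 3 matches each, and in *Psma7* and *Psmc3ip* they are 1 CCAAT box each. In *Psmc6* they are 1 match to the antioxidant response element core, 227 bases before the start, and in *Psme4* they are 1 such match that begins 7 bases before the start. In *Psmb9* the one match is a CCAAT box, with neither interferon motif in this window. Over the 42 promoters, 6 held the antioxidant response element core (14.3%, against 14% of the promoters of all 27025 genes), namely *Psmb5*, *Psmb6*, *Psmc6*, *Psmd9*, *Psmd12* and *Psme4*. These 6 had log2 fold changes of 0.42, 0.04, 0.68, 0.51, 0.08 and 0.62. The interferon-stimulated response element was found in 5 (11.9%, against 3.99%), the gamma-activated site in 3 (7.14%, against 9.55%), among them *Psmb8*, and the CCAAT box in 15 (35.7%, against 41.1%). A match is a description of the letters, and no match says nothing of a factor's binding elsewhere.

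The alpha ring of the 20S core had positive values for all 7 members, with a median of 0.38 and a range from 0.21 to 0.83. *Psma3*, whose promoter held CCAAT boxes and no antioxidant response element core, had the lowest p of all proteasome genes. Its CPM were 51.8, 42.3, 55.6 and 49.6 in WT replicates 1 to 4 and 97.3, 84.2, 92.6 and 80.4 in *Pdgfra-Cre:LmnaF/F* replicates 1 to 4. Every *Pdgfra-Cre:LmnaF/F* library lay above every WT library, and the SD of log2 CPM within groups, 0.148, was the smallest among the 47 genes. The difference was 1.77-fold, or 0.83 on the log2 scale (SE 0.20, 95% interval 0.41 to 1.24, adjusted p = 0.0987). The adjusted p of *Psma3* was 0.0111 in DESeq2, 0.00516 in DESeq2 with RUVr and 0.0355 in limma-voom, and 0.177 at the most over the 9 alternatives. Part of its sequence is shared with 4 near-identical copies in the genome, of which *Gm609* is listed, with 4 counts in 1 WT library, 0 in the other 3, and 0, 0, 17 and 37 counts in the *Pdgfra-Cre:LmnaF/F* libraries. *Psma7* had 63.3, 51.3, 69.2 and 50.8 CPM in WT and 80.2, 100.7, 57.7 and 92.1 in *Pdgfra-Cre:LmnaF/F* libraries. *Pdgfra-Cre:LmnaF/F* replicate 3 lay within the WT range, and the log2 difference was 0.49 (SE 0.22, adjusted p = 0.405). The other 5 members, *Psma1*, *Psma2*, *Psma4*, *Psma5* and *Psma6*, had log2 fold changes of 0.21 to 0.49 with overlapping groups.

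The constitutive beta ring was split, with 5 members higher and 2 lower and a median of 0.09. *Psmb1*, a structural subunit without a catalytic site, was the only one at an unadjusted p under 0.05. Its CPM were 111.1, 115.7, 87.1 and 101.5 in WT and 134.6, 159.4, 137.1 and 163.4 in *Pdgfra-Cre:LmnaF/F* libraries. The groups did not overlap, and the difference was 1.43-fold (log2 0.52, SE 0.18, adjusted p = 0.266). *Psmb2*, *Psmb3* and *Psmb4*, which are also structural, had log2 fold changes of -0.13, 0.09 and 0.12. The alpha and beta rings are built in equal numbers, and no test of a difference between their log2 fold changes was made.

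**Figure D3:**
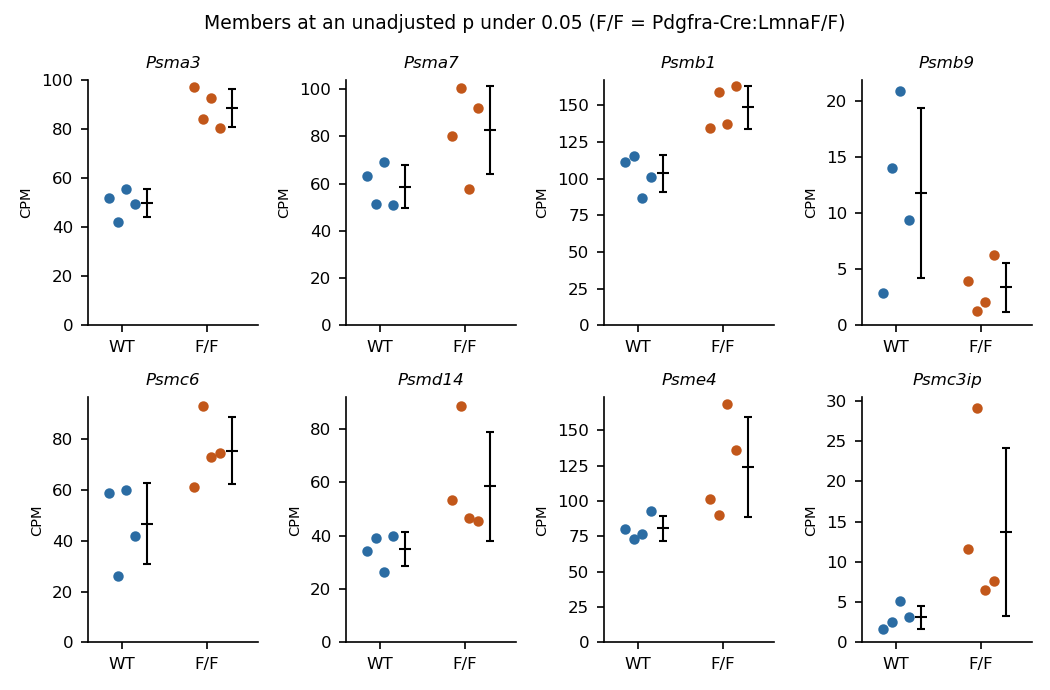
CPM in each library (points) with the mean and SD (n = 4) of both genotypes for the 8 genes at an unadjusted p under 0.05. The *Psma3* values sit at 42.3 to 55.6 in WT and at 80.4 to 97.3 in *Pdgfra-Cre:LmnaF/F*, while *Psmb9*, *Psma7* and *Psme4* overlap between the groups.

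In the 19S base, the ATPases that unfold the substrate had 3 members higher and 3 lower, with a median of -0.05. *Psmc6* was at 58.7, 26.2, 60.1 and 41.9 CPM in WT and at 61.2, 93.1, 72.9 and 74.7 in *Pdgfra-Cre:LmnaF/F* libraries. The groups did not overlap, but WT replicate 3 and *Pdgfra-Cre:LmnaF/F* replicate 1 were close, and WT replicate 2 was the lowest of all. The log2 difference was 0.68 (SE 0.26, adjusted p = 0.319). The other ATPases, *Psmc1* to *Psmc5*, lay between -0.35 and 0.14 with overlapping groups. The scaffold *Psmd2* had the lowest p of the 3 other base subunits, with 172, 152, 109 and 157 CPM in WT and 200, 200, 152 and 166 in *Pdgfra-Cre:LmnaF/F* libraries (log2 0.28, SE 0.20, adjusted p = 0.648). Without WT replicate 3 the log2 difference of *Psmd2* was 0.15. The scaffold *Psmd1* (-0.02) and the ubiquitin receptor *Psmd4* (0.14) were closer to 0.

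In the lid, 5 members had positive and 3 negative values, with a median of 0.10. *Psmd14*, the metalloprotease that cuts the ubiquitin chain off the substrate, was at 34.2, 39.2, 26.2 and 39.8 CPM in WT and at 53.5, 88.6, 46.4 and 45.4 in *Pdgfra-Cre:LmnaF/F* libraries. All *Pdgfra-Cre:LmnaF/F* libraries lay above all WT libraries, and replicate 2 was well above the other 3. The difference was 1.68-fold (log2 0.75, SE 0.27, adjusted p = 0.274), and without *Pdgfra-Cre:LmnaF/F* replicate 2 it was 0.48 on the log2 scale. *Psmd7*, the partner with which *Psmd14* forms a dimer, was at 41.5, 45.3, 4.47 and 18.6 CPM in WT and at 17.5, 21.7, 15 and 31.2 in *Pdgfra-Cre:LmnaF/F* libraries. WT libraries of *Psmd7* spanned the whole range of both groups, with 28 counts in WT replicate 3 against 444 in WT replicate 1, and its log2 difference was -0.35 with an SE of 0.52. The other lid subunits, *Psmd3*, *Psmd6*, *Psmd8*, *Psmd11*, *Psmd12* and *Psmd13*, lay between -0.14 and 0.24.

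The immunoproteasome subunits had negative log2 fold changes for all 3 members, with a median of -0.19. *Psmb9* was at 2.9, 14.1, 20.9 and 9.4 CPM in WT and at 3.9, 1.3, 2.1 and 6.2 in *Pdgfra-Cre:LmnaF/F* libraries. WT replicate 1 lay inside the range of the *Pdgfra-Cre:LmnaF/F* libraries and the other 3 WT libraries lay above it. These values rest on 28 to 131 counts per WT library and 12 to 75 counts per *Pdgfra-Cre:LmnaF/F* library. The difference was 3.46-fold lower (log2 -1.79, SE 0.72, 95% interval -3.34 to -0.25, adjusted p = 0.343), and the adjusted p lay between 0.168 and 0.585 over the 9 alternatives. The log2 difference of *Psmb9* was -1.19 in limma-voom, -1.36 without WT replicate 3 and -2.27 without *Pdgfra-Cre:LmnaF/F* replicate 4. Exons of *Psmb9* overlap those of *Tap1* on the opposite strand, and the strand setting of the counting is not stated. *Psmb8* was at 11.7, 11.6, 35.0 and 14.8 CPM in WT and at 25.3, 20.6, 10.6 and 12.8 in *Pdgfra-Cre:LmnaF/F* libraries. WT replicate 3 was the highest of all 8, and the log2 difference was -0.08 (SE 0.44, adjusted p = 0.966), which became 0.44 without that library. *Psmb10* was at 29.0, 51.3, 50.2 and 34.3 CPM in WT and at 35.2, 39.2, 53.4 and 15.8 in *Pdgfra-Cre:LmnaF/F* libraries, with a log2 difference of -0.19 (SE 0.34, adjusted p = 0.888) that became 0.06 without *Pdgfra-Cre:LmnaF/F* replicate 4. The 3 genes did not share an order of libraries: *Psmb8* and *Psmb9* were highest in WT replicate 3, and *Psmb10* in *Pdgfra-Cre:LmnaF/F* replicate 3.

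Each immunoproteasome subunit was set beside the constitutive subunit it replaces. *Psmb5*, the chymotrypsin-like subunit replaced by *Psmb8*, was at 24.5, 15.6, 31.0 and 26.3 CPM in WT and at 27.2, 43.2, 34.2 and 26.6 in *Pdgfra-Cre:LmnaF/F* libraries (log2 0.42, SE 0.29, adjusted p = 0.636). Its log2 difference was 0.25 without *Pdgfra-Cre:LmnaF/F* replicate 2 and 0.26 without WT replicate 2. *Psmb6*, the caspase-like subunit replaced by *Psmb9*, was at 147.0, 99.6, 185.8 and 190.2 CPM in WT and at 157.7, 181.7, 148.3 and 156.0 in *Pdgfra-Cre:LmnaF/F* libraries (log2 0.04, SE 0.22, adjusted p = 0.965). *Psmb7*, the trypsin-like subunit replaced by *Psmb10*, was at 66.2, 41.8, 64.1 and 65.6 CPM in WT and at 65.3, 57.4, 37.6 and 43.4 in *Pdgfra-Cre:LmnaF/F* libraries (log2 -0.23, SE 0.25, adjusted p = 0.799). Its log2 difference was -0.38 without *Pdgfra-Cre:LmnaF/F* replicate 1, -0.36 without WT replicate 2 and -0.11 without *Pdgfra-Cre:LmnaF/F* replicate 3. The groups overlapped for all 3 constitutive subunits. Per kilobase of exon, the ratio of *Psmb8* to *Psmb5* was 0.127 to 0.3 in WT and 0.0824 to 0.248 in *Pdgfra-Cre:LmnaF/F* libraries. The ratio of *Psmb9* to *Psmb6* was lower still, 0.0101 to 0.0723 in WT and 0.00352 to 0.0205 in *Pdgfra-Cre:LmnaF/F* libraries. By contrast, *Psmb10* and *Psmb7* were at similar levels, with a ratio of 0.877 to 2.47 in WT and 0.732 to 2.85 in *Pdgfra-Cre:LmnaF/F* libraries. Transcripts of the 3 immunoproteasome subunits, which are built into the same particle, were thus present in unequal amounts relative to their counterparts in every library.

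**Figure D4:**
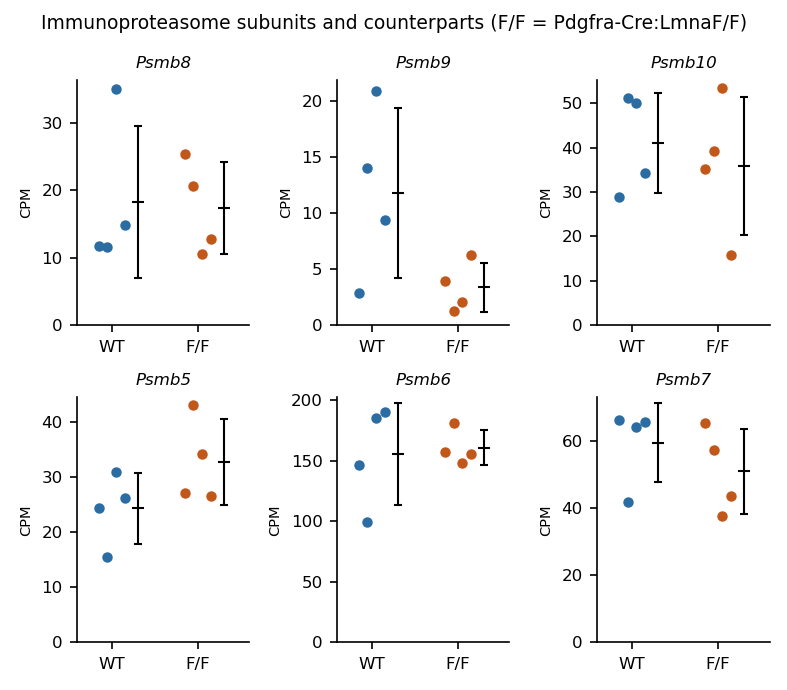
CPM in each library (points) with the mean and SD (n = 4) of both genotypes for the immunoproteasome subunits (top) and the constitutive subunits they replace (bottom). *Psmb9* runs from 2.9 to 20.9 in WT and from 1.3 to 6.2 in *Pdgfra-Cre:LmnaF/F*, and the groups overlap in all 6 panels.

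Leukocytes express the immunoproteasome at rest, and markers of leukocytes and of endothelial cells are given beside these genes. Summed CPM of the 10 leukocyte markers were 93.6, 114, 170 and 39.9 in WT and 51.8, 96.4, 83.0 and 418 in *Pdgfra-Cre:LmnaF/F* libraries. The sum was highest in *Pdgfra-Cre:LmnaF/F* replicate 4, where *Psmb9* was the highest of its group and *Psmb10* the lowest of all libraries. Within WT the sum was highest in replicate 3, as were *Psmb8* and *Psmb9*. *Lyz2* alone gave 134 of the 170 CPM in WT replicate 3 and 282 of the 418 in *Pdgfra-Cre:LmnaF/F* replicate 4. *Ptprc*, *Adgre1*, *Cd14* and *Cd3e* were also highest of WT in replicate 3, while *Csf1r* (3.52 CPM) and *Cd68* (0 CPM) were lowest of WT there. Of the 10 markers, 6 passed the filter, 5 with a positive log2 fold change (51.8% of all genes) and 1 of the 6, *Csf1r*, at an unadjusted p under 0.05 (log2 1.57, SE 0.51, adjusted p = 0.213, overlapping groups), where all genes gave 11.9%. The endothelial markers, also of cells outside the sort, had negative log2 fold changes for all 6 members, with a median of -0.37 and 1 at an unadjusted p under 0.05 (5.65% of all genes were lower at that threshold). Their summed CPM were 180 to 280 in WT and 108 to 236 in *Pdgfra-Cre:LmnaF/F* libraries. *Cdh5*, the gene of VE-cadherin, was the one at that threshold, with a log2 difference of -1.17 (SE 0.38, adjusted p = 0.215) and no overlap between the groups (3.97% of all genes were lower without overlap). The part of leukocyte and endothelial RNA in the immunoproteasome values was not tested.

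Among the activators, which open the barrel without the 19S cap, *Psme4* (PA200, the nuclear activator that acts on acetylated histones) was at 80.2, 73.0, 76.5 and 92.9 CPM in WT and at 101.6, 90.3, 168.7 and 135.8 in *Pdgfra-Cre:LmnaF/F* libraries. *Pdgfra-Cre:LmnaF/F* replicate 2 was just below WT replicate 4, and the other 3 were above all WT libraries. The log2 difference was 0.62 (SE 0.22, adjusted p = 0.271). The 3 genes of the 11S activator family, the interferon-inducible *Psme1* and *Psme2* and the nuclear *Psme3*, had log2 fold changes of -0.19, -0.25 and -0.17, with overlapping groups. The inhibitor *Psmf1* (PI31) was at 49.8, 36.2, 22.0 and 59.3 CPM in WT and at 43.3, 33.1, 33.6 and 63.7 in *Pdgfra-Cre:LmnaF/F* libraries, a log2 difference of 0.05 (SE 0.32, adjusted p = 0.973) that was -0.21 in limma-voom.

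The chaperones that assemble the 19S base had positive values for all 3 members, with a median of 0.50. *Psmd5* had the lowest p, at 47.5, 35.7, 29.6 and 50.6 CPM in WT and 45.5, 67.3, 69.4 and 49.4 in *Pdgfra-Cre:LmnaF/F* libraries (log2 0.50, SE 0.25, adjusted p = 0.466), and its log2 difference was 0.26 in limma-voom. *Psmd9* was at 0.51 (SE 0.27) and *Psmd10*, with few counts, at 0.22 (SE 0.58). The chaperones that assemble the 20S barrel had 1 positive and 3 negative values, with a median of -0.44 and wide errors. *Psmg2* had the lowest p, at 13.7, 9.06, 27.0 and 23 CPM in WT and 23.3, 5.94, 4.37 and 14.2 in *Pdgfra-Cre:LmnaF/F* libraries (log2 -0.62, SE 0.53, adjusted p = 0.728). Without *Pdgfra-Cre:LmnaF/F* replicate 1 its value was -1.16, and without replicate 3 of that group -0.34. *Psmg1* (-0.26, SE 0.44), *Psmg3* (-0.85, SE 1.15) and *Psmg4* (0.22, SE 0.42) did not differ beyond their errors, and *Psmg3* was at 0 counts in *Pdgfra-Cre:LmnaF/F* replicate 3.

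*Psmc3ip*, the match by name, was at 1.7, 2.5, 5.1 and 3.1 CPM in WT and at 11.6, 29.1, 6.6 and 7.7 in *Pdgfra-Cre:LmnaF/F* libraries. The groups did not overlap, and replicate 2 of *Pdgfra-Cre:LmnaF/F* was highest. The difference was 4.39-fold (log2 2.13, SE 0.64, adjusted p = 0.193), and without *Pdgfra-Cre:LmnaF/F* replicate 2 the log2 difference was 1.46. The adjusted p was 0.039 in DESeq2 and lay between 0.0111 and 0.372 over the 8 alternatives that kept the gene. Its exons overlap those of *Mlx* on the opposite strand, and *Mlx* had a log2 fold change of -0.25 (SE 0.26, adjusted p = 0.79).

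The deviation of each library from the mean of each gene over the 8 libraries, taken as the median over genes, shows which libraries the values rest on. For the 26S core it was 0.03, -0.21, -0.00 and -0.10 in WT replicates 1 to 4 and 0.14, 0.23, -0.15 and 0.04 in *Pdgfra-Cre:LmnaF/F* replicates 1 to 4, on the log2 scale. WT replicate 2, the shallowest library, was lowest, *Pdgfra-Cre:LmnaF/F* replicate 2 was highest, and *Pdgfra-Cre:LmnaF/F* replicate 3 was below 3 of the WT libraries. The alpha ring followed the same order at both ends, with -0.50 in WT replicate 2 and 0.35 in *Pdgfra-Cre:LmnaF/F* replicate 2. *Pdgfra-Cre:LmnaF/F* replicate 3, at -0.25, was the one library of its group below 0. For the immunoproteasome the order was different: WT replicate 3 was highest, at 1.09, and *Pdgfra-Cre:LmnaF/F* replicate 3 lowest, at -0.61.

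**Figure D5:**
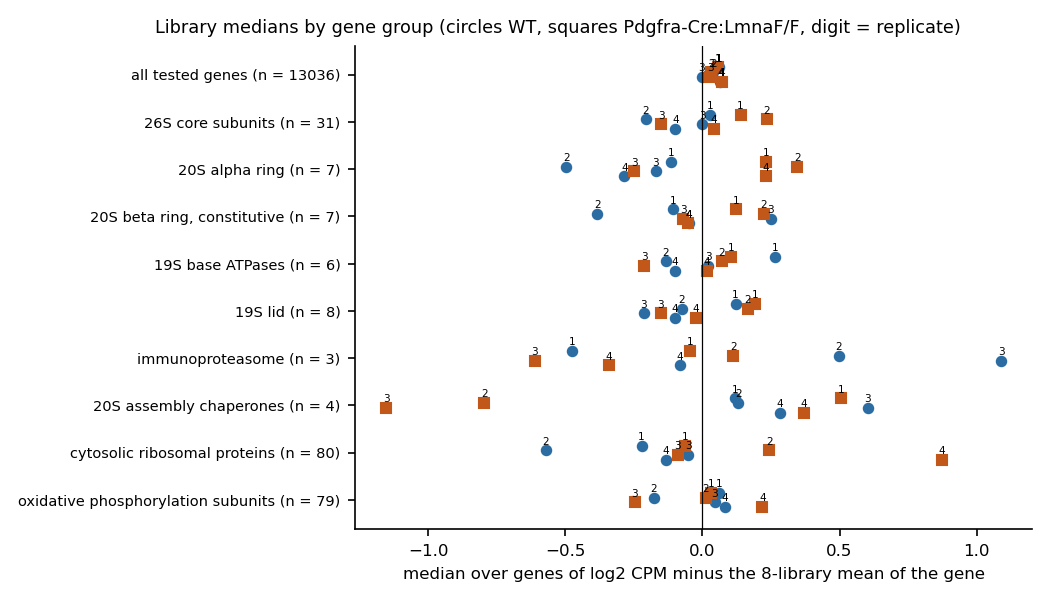
Median over the genes of each group of log2 CPM minus the mean of the gene over 8 libraries, for each library (circles WT, squares *Pdgfra-Cre:LmnaF/F*, with the replicate number). For the 26S core, 3 of the 4 *Pdgfra-Cre:LmnaF/F* libraries (0.04 to 0.23) lie above every WT library (-0.21 to 0.03) and replicate 3 (-0.15) lies among them, while the ribosomal proteins reach 0.87 in *Pdgfra-Cre:LmnaF/F* replicate 4.

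Other housekeeping complexes are given for comparison, and no test of a difference between complexes was made. Of 80 tested genes of cytosolic ribosomal proteins, 76 had a positive log2 fold change, with a median of 0.55 and 40 at an unadjusted p under 0.05, where all genes gave 11.9%. By library, their median deviation was -0.22, -0.57, -0.05 and -0.13 in WT and -0.06, 0.24, -0.09 and 0.87 in *Pdgfra-Cre:LmnaF/F* replicates 1 to 4. *Pdgfra-Cre:LmnaF/F* replicate 4, the library with high myocyte and leukocyte markers, and WT replicate 2, the shallowest, lay at the ends, while *Pdgfra-Cre:LmnaF/F* replicates 1 and 3 lay below WT replicate 3. Of 79 nuclear-encoded subunits of oxidative phosphorylation, 44 were positive, with a median of 0.02 and 4 at an unadjusted p under 0.05. The 26S core, with 22 of 31 positive and a median of 0.14, lay between them.

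Proteasome parts and partners that lack a *Psm* symbol had 12 of 13 members listed and tested (all but *Paaf1*), 8 positive and 4 negative. At an unadjusted p under 0.05 there were 3, all higher, where 6.24% of all genes were higher at that threshold. *Uchl5*, a deubiquitinase of the 19S base, was at 5.89, 1.51, 5.43 and 2.59 CPM in WT and 10.7, 12.9, 14.5 and 8.17 in *Pdgfra-Cre:LmnaF/F* libraries, without overlap (log2 1.54, SE 0.59, adjusted p = 0.311). Higher without overlap were 4.06% of all genes. *Zfand5*, a zinc-finger activator of the 26S proteasome, was at 84.8, 81.0, 138 and 84.4 CPM in WT and 116, 167, 159 and 139 in *Pdgfra-Cre:LmnaF/F* libraries (log2 0.58, SE 0.22, adjusted p = 0.309). Its adjusted p was 0.0425 in DESeq2 with RUVr and lay between that and 0.354 over the 9 alternatives. WT replicate 3 of *Zfand5* lay within the range of the other group. The lid subunit *Sem1*, the ubiquitin receptor *Adrm1* and the 20S assembly factor *Pomp* had log2 fold changes of 0.05, 0.05 and 0.12.

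The regulators of proteasome genes had 5 positive and 6 negative values of 11. *Nfe2l1*, the gene of NRF1, was at 230, 291, 227 and 199 CPM in WT and 227, 152, 115 and 158 in *Pdgfra-Cre:LmnaF/F* libraries. *Pdgfra-Cre:LmnaF/F* replicate 1 lay within the WT range and the other 3 below it (log2 -0.54, SE 0.22, adjusted p = 0.364). *Maff*, a small Maf partner of NRF1, was at 18.3, 30.7, 52.2 and 26.7 CPM in WT and 76.2, 49.5, 75.3 and 50.7 in *Pdgfra-Cre:LmnaF/F* libraries. Its groups overlapped through WT replicate 3, with a log2 difference of 0.98 (SE 0.31, adjusted p = 0.208) and an adjusted p of 0.0205 in limma-voom. These are transcript levels, and NRF1 is controlled by processing of the protein, which these libraries do not measure.

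Among 12 ubiquitin genes and shuttles, 8 were positive, with 2 higher (6.24% of all genes) and 2 lower (5.65% of all genes) at an unadjusted p under 0.05. *Rps27a*, which encodes ubiquitin fused to a ribosomal protein, was at 97.6, 63.4, 75.6 and 92.3 CPM in WT and 126, 212, 117 and 274 in *Pdgfra-Cre:LmnaF/F* libraries, without overlap (log2 1.14, SE 0.27, adjusted p = 0.0987). *Uba6*, the second ubiquitin-activating enzyme, was at 33.9, 25.7, 26.5 and 38.1 CPM in WT and 63.0, 70.8, 51.9 and 56.4 in *Pdgfra-Cre:LmnaF/F* libraries, also without overlap (log2 0.95, SE 0.23, adjusted p = 0.112). DESeq2 called both, with adjusted p of 0.00617 and 0.0175, where it called 2.32% of all genes. Higher without overlap were 4.06% of all genes. The main ubiquitin-activating enzyme *Uba1* was lower in every *Pdgfra-Cre:LmnaF/F* library than in any WT library (log2 -0.42, SE 0.17, adjusted p = 0.364). Lower without overlap were 3.97% of all genes. No test of the difference between *Uba1* and *Uba6* was made.

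Genes of MHC class I peptide loading and of interferon signalling, the pathway that the immunoproteasome serves, had 9 positive and 11 negative values of 20, with 2 higher (6.24% of all genes) and 4 lower (5.65% of all genes) at an unadjusted p under 0.05. *Tapbp*, the tapasin of the loading complex, was at 243, 331, 221 and 230 CPM in WT and 170, 173, 107 and 229 in *Pdgfra-Cre:LmnaF/F* libraries (log2 -0.59, SE 0.24, adjusted p = 0.336). *Pdia3*, its partner disulfide isomerase, was at 322, 394, 410 and 311 CPM in WT and 248, 342, 207 and 184 in *Pdgfra-Cre:LmnaF/F* libraries (log2 -0.55, SE 0.22, adjusted p = 0.341). Both had 1 *Pdgfra-Cre:LmnaF/F* library within the WT range. The peptide transporter *Tap1*, which starts 211 bases from *Psmb9* on the opposite strand in GENCODE M21, had a log2 difference of -0.01 (SE 0.30). RefSeq, from which the promoter of *Psmb9* was taken, places the start of *Psmb9* elsewhere. The other lower genes at that threshold were *B2m*, the light chain of MHC class I (log2 -0.54, SE 0.22, adjusted p = 0.36), and the chaperone *Calr* (-0.60). *B2m* was lower in every *Pdgfra-Cre:LmnaF/F* library than in any WT library (3.97% of all genes), and the groups overlapped for every other gene of the list. The 2 higher genes were the class I heavy chain *H2-Q4* (log2 0.86, SE 0.37, adjusted p = 0.37), which has close relatives among the class I genes, and the transcription factor *Irf8* (log2 0.47, SE 0.21, adjusted p = 0.402).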

How the data were processed

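RNA of sorted PDGFRA-positive cardiac fibroblasts was measured in 4 WT and 4 *Pdgfra-Cre:LmnaF/F* libraries, grouped by the genotype and replicate number of the labels. The authors depleted ribosomal RNA, made strand-specific libraries from RNA with a RIN above 8, and sequenced paired-end reads. HISAT2 placed the reads on mm10 and featureCounts assigned them to GENCODE genes. The deposited values are counts, whole numbers by gene symbol. The labels also name FastQC and DESeq2. The methods place RUV normalization around the counting step, and the deposited counts show no scaling to a common total. The GENCODE release and the strand setting of the counting are not given in the sources used here.

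The counts were fitted with edgeR 4.0.16 (R 4.3.3; TMM factors, filterByExpr, quasi-likelihood test on genotype, 13036 genes, Benjamini-Hochberg adjustment over all of them, threshold 0.05). The procedure was also run on simulated counts, drawn with the dispersions that edgeR estimated from these data. No outlying library and no difference in cell types was built into them, so that run cannot speak to either. SE is the absolute log2 fold change over the square root of F, and intervals use the degrees of freedom of the fit. Alternatives were DESeq2 1.42.0, limma-voom (limma 3.58.1) with quality weights, RLE or upper-quartile factors, no filter, at least 10 counts in every library, 1 RUVr factor in edgeR or DESeq2, a replicate block, and each library left out. Log2 CPM used a prior count of 2. Coordinates, exon lengths and overlaps came from GENCODE M21 (GRCm38, the assembly of mm10), in which 18918 of 18957 symbols matched, and near-identical copies (at least 95% identity over 300 bases) from BLAST 2.17.0.

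The named genes were *Lmna*, the immunoproteasome subunits and their counterparts, each proteasome gene at an unadjusted p under 0.05 or with the lowest p of its role, and the 2 genes with the lowest p in each other list. Other genes given with log2 values only were named to account for every member or chosen after their values were seen. The genes and lists were chosen with earlier results of these data known. The labels do not say that each library is a separate animal, so p-values measure the spread between these libraries, which may be technical. Totals of 2080555 to 12502949 counts limit the precision of genes with few counts.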

Additional observations from a re-analysis of the deposited data

Results flagged for a closer look

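In 52 groups of 4 libraries, 3 held a library far from its neighbours by Dixon's criterion, and chance gives about 1 in 20. *Psmb8* was at 35.0 CPM in WT replicate 3, where the other WT libraries were at 11.6 to 14.8. *Psmb7* was at 41.8 CPM in WT replicate 2, where the other WT libraries were at 64.1 to 66.2. *Zfand5* was at 138 CPM in WT replicate 3, where the other WT libraries were at 81.0 to 84.8.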

How the results depend on the processing

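In edgeR 53 genes of all tested were called, against 303 in DESeq2, 126 in limma-voom, 274 with no filter, 81 with 1 RUVr factor, 455 in DESeq2 with 1 RUVr factor and 13 to 76 with 1 library left out. Of the proteasome genes, 0 were called in edgeR, 2 in DESeq2, 1 in limma-voom and 2 in DESeq2 with RUVr. With 1 library left out, 4 to 9 of 47 were at an unadjusted p under 0.05 (8.88% to 13.1% of all genes), with 4 without *Pdgfra-Cre:LmnaF/F* replicate 2 (11.1% of all genes) and 5 without WT replicate 2 (8.97%). Groups that did not overlap numbered 5 to 9 among proteasome genes and 1363 to 1792 among all genes with 1 library left out, where fewer libraries overlap less by construction. Of all genes, 2.32% were called in DESeq2, 1.45% with no filter, 0.967% in limma-voom and 3.49% in DESeq2 with RUVr. Beside these shares, the 12 ubiquitin genes had 2 called in DESeq2, 1 with no filter and 2 in DESeq2 with RUVr. The 11 regulators had 1 in limma-voom and 1 in DESeq2 with RUVr. The 12 tested partners had 1 in DESeq2 with RUVr (*Zfand5*). *Psmb8* changed sign, to 0.30 in limma-voom, 0.082 with RUVr in edgeR or DESeq2 and 0.019 with the replicate block, and ran from -0.32 to 0.44 with 1 library left out. With 1 library left out, *Psmb10* ran from -0.44 to 0.058, *Psmb6* from -0.12 to 0.15 and *Psmf1* from -0.20 to 0.27, and *Psmf1* was -0.21 in limma-voom. *Psmb10* was -0.11 in limma-voom. The cause of these moves was not tested.

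Replicate numbers were shared by the genotypes, but deviations of same-numbered libraries did not go together (correlations -0.03, -0.03, -0.00 and 0.04), so the numbers were not taken as pairs. With the replicate block, 36 genes were called over all genes and 0 of the proteasome genes, with 6 of 47 at an unadjusted p under 0.05 (10.2% of all genes). Counts per library were as low as 0 for *Psmg3* and 12 for *Psmb9*, and the SD of log2 CPM within groups was 1.46 and 1.07.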
